A study of Rattus norvegicus with 6 samples.

Results

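Mitochondria make few of their own proteins, so nearly all of their proteins enter through import machines of the outer and inner membrane. The TOM complex is the entry gate in the outer membrane, the TIM23 complex takes precursors with a cleavable targeting sequence into or across the inner membrane, and the TIM22 complex inserts multispanning proteins into the inner membrane. Small TIM proteins are chaperones of the space between the membranes, and among their best known cargo are the precursors of the SLC25 carriers. Most of these carriers are inner membrane transporters that exchange nucleotides, phosphate, amino acids, organic acids and cofactors between mitochondrion and cytosol. The 2 families are therefore largely machinery and cargo, and both are described here in rat liver after a low-protein meal.

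The members were all probe sets whose only gene symbol in the platform annotation began with Slc25a, Timm or Tomm followed by a digit, without Slc25a1, Slc25a13, Slc25a15 and Slc25a20. This gave 80 of the 31042 probe sets tested, of which 48 belonged to 36 carrier genes and 32 to 23 import genes, or 59 of the 14217 genes with a symbol of their own. A further 3 matching probe sets carried several symbols or gene IDs and were left out, among them the only one for Timm23, the channel of the TIM23 complex. The member rule names symbols only and uses no expression value, but it was set with earlier results of these data known.

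Liver RNA was measured on 6 Affymetrix arrays. The 5P arrays (n = 3) came from rats given an isoenergetic diet low in protein, and the 15P arrays (n = 3) from rats given the control diet. All rats were male Wistar animals, purchased at 6 weeks of age at about 150 g, caged singly, kept for 4 days on pellets and trained for 4 days to eat 15P in a daily window. Each group then ate its diet for 8 hours, and livers were taken after 16 hours of starvation, so both groups were fasted. The labels do not say whether each array is a separate animal, so the p-values measure the spread between these samples, which may be technical.

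Levels are log2 of the deposited intensities, whose median per array ran from 33.34 to 34.32 on the linear scale, and differences are 5P minus 15P on the log2 scale with the moderated SE of limma. A probe set passed the test at a Benjamini-Hochberg adjusted p under 0.05 over all 31042. Intensities are not set against each other between probe sets except to rank abundance roughly, because probe sets differ in affinity. The whole organ was sampled, and fewer cells of a type cannot be told apart from less RNA per cell. The hepatocyte markers were among the brightest probe sets, with 6 of 7 measured at log2 levels of 13.12 or more. Calls depended on single arrays, since leaving out 15P replicate 3 gave 109 calls over all probe sets in place of 41, and leaving out any other array gave 16 to 22.

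The promoters below are shown because the first belongs to the only member that passed the test, the next pair to import genes with large differences in the same direction, and the last to the most abundant carrier, which stood slightly the other way. Each is the 250 bases before the gene's start in RefSeq, build GRCr8, on the gene's own strand. Capitals mark the letters CCGGAAG, a form of the site bound by ETS factors such as GABP, on either strand, and CACGTG, the E-box. Shorter or other forms of the ETS site are not marked. In Timm10, matches on both strands overlap in a single stretch of capitals. None of the other motifs described further on occurs in these 4 stretches.
Timm8a1, chrX:102015445-102015694, minus strand: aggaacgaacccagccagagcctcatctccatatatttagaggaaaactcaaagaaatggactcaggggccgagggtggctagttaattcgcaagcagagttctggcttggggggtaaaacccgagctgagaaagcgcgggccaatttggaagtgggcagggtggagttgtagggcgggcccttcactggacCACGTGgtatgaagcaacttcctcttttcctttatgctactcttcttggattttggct
Timm10, chr3:90314889-90315138, plus strand: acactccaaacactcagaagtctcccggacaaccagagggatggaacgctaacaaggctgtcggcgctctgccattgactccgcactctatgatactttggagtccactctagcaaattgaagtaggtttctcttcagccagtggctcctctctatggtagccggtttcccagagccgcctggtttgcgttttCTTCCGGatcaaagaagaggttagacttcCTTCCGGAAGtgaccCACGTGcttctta
Timm10b, chr1:169392105-169392354, plus strand: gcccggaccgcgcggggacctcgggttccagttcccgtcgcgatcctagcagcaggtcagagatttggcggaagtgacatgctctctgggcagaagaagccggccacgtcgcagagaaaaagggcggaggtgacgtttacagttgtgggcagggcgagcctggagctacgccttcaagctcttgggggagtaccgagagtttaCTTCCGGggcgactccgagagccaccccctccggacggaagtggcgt
Slc25a5, chrX:120897366-120897615, plus strand: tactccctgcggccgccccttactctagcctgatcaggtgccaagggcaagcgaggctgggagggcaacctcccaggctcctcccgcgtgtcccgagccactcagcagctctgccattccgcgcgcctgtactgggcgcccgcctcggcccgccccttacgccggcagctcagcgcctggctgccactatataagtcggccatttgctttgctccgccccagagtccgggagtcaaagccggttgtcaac

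Most import subunits had slightly more RNA signal in low-protein livers, and carriers lay on both sides of 0. Of the 32 import probe sets, 30 had a log2 difference above 0 and 2 below, with a median of 0.14. Of the 48 carrier probe sets, 24 stood above 0 and 24 below, with a median of -0.0005. Over all probe sets 58.1% stood above 0, and the median was 0.03. Counted by genes, with the probe set of highest mean standing for each, 21 of 23 import genes and 21 of 36 carrier genes stood above 0, with medians of 0.16 and 0.01.

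One import probe set, for Timm8a1, rose, 31 did not pass, and none of the 48 carrier probe sets passed limma's test, where 0.132% of all probe sets passed in either direction and 0.0354% passed upward. An unadjusted p under 0.05 was reached upward by 10 import probe sets and downward by none. Among carriers it was reached upward by 4 and downward by 1. Over all probe sets these shares were 7.83% upward and 7.58% downward. The 3 arrays of 5P all lay above the 3 of 15P for 12 import probe sets (37.5%) and 6 carrier probe sets (12.5%), and all lay below them for no import probe set and 2 carrier probe sets. The same held upward for 12.5% and downward for 9.12% of all probe sets, so the carriers' upward share equalled that background.

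Import probe sets had a median log2 level of 8.15 and carriers one of 6.85, against 5.08 over all probe sets. Among the 15521 probe sets brighter than the median, 48.9% stood above 0 and the median difference was -0.01. In that brighter range 25 of 26 import probe sets stood above 0, with a median of 0.18. Of 37 carrier probe sets in it, 17 did so, with a median of -0.005. No test of carriers against import subunits was made, and these counts are a description of the 6 arrays.

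**Figure D1:**
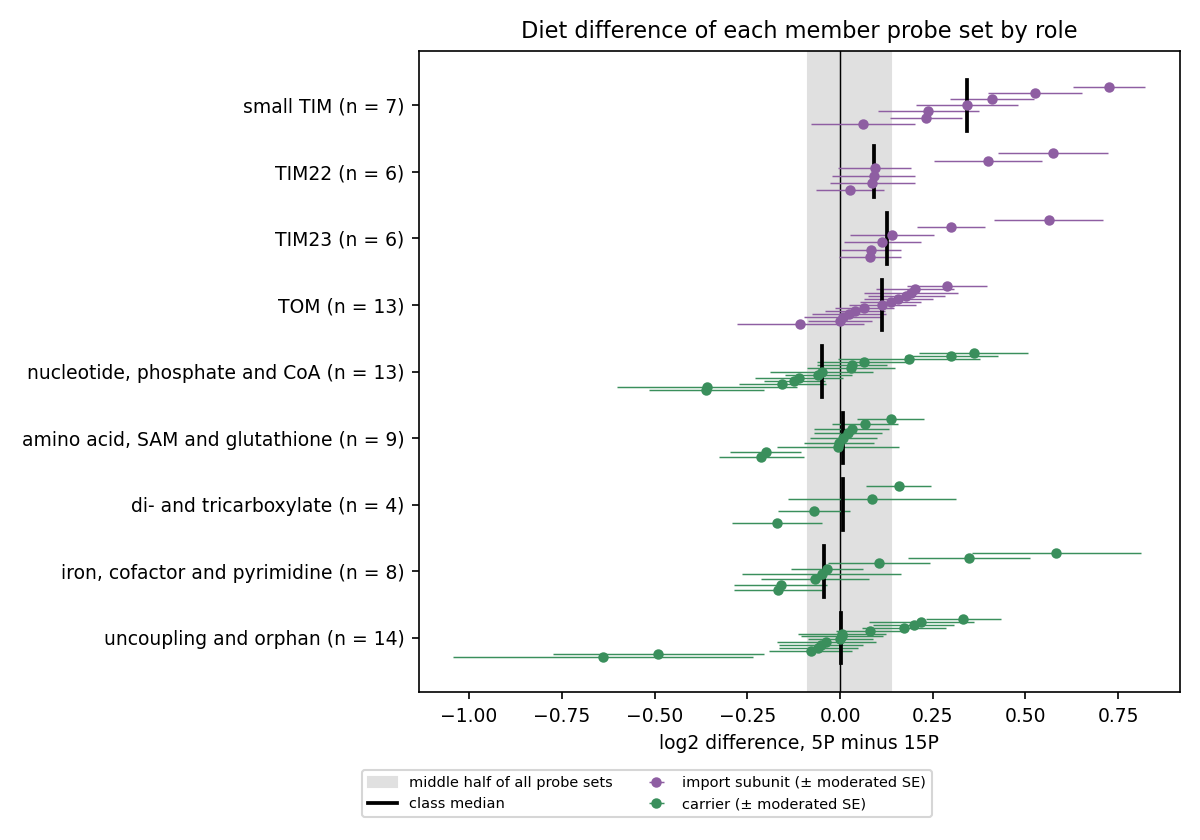
Log2 difference (5P minus 15P, horizontal axis) of each of the 80 member probe sets, grouped by role down the page, with the moderated SE as bars, the class median as a black line and the middle 50% of all probe sets shaded. The 4 import classes have medians of 0.09 to 0.34, and the 5 carrier classes have medians of -0.05 to 0.01.

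The small TIM chaperones stood furthest from 0 of the 9 role classes by median, at 0.34, with all 7 probe sets above 0 and 1 past the test. Timm8a1, which works in a complex with Timm13 and whose human counterpart is the deafness-dystonia gene, had log2 levels of 8.54, 8.57 and 8.47 on the 5P arrays, against 7.66, 7.81 and 7.93 on the 15P arrays. The lowest 5P array lay well above the highest 15P array. This was a rise of 0.73 (SE 0.097), or 1.65-fold, with a mean of 8.53 ± 0.05 in 5P livers and 7.80 ± 0.13 in 15P livers (SD, n = 3 each; limma adjusted p = 0.0455). The second Timm8a1 probe set had 8.14, 7.98 and 8.35 in 5P livers, against 7.47, 7.80 and 7.61 in 15P livers. Its groups did not overlap either, and its difference of 0.53 (SE 0.127) did not pass (adjusted p = 0.128).

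The Timm8a1 call was close to the threshold and rested on all but 1 of the arrays. It held without 15P replicate 3, where the adjusted p was 0.0366, and was lost without 15P replicates 1 and 2 (adjusted p = 0.124 and 0.127) and without 5P replicates 1, 2 and 3 (adjusted p = 0.132, 0.0999 and 0.115). The difference itself ranged from 0.66 to 0.79 over these 6 fits.

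Timm10 and Timm9 form the hexamer that escorts carrier precursors to TIM22. Timm10 had log2 levels of 9.99, 9.84 and 10.18 in 5P livers, against 9.48, 9.60 and 9.70 in 15P livers, groups that did not overlap. Its difference was 0.41 (SE 0.113, adjusted p = 0.161). Timm9 had 8.40, 8.37 and 7.99 in 5P livers and 7.85, 8.00 and 8.18 in 15P livers. The Timm9 groups overlapped because 5P replicate 3 lay below 15P replicates 2 and 3. The Timm9 difference was 0.24 (SE 0.137), or 0.37 without 5P replicate 3 and 0.16 without 15P replicate 1.

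Timm13, the partner of Timm8a1 and the most abundant small TIM by signal, had 10.55, 10.80 and 10.61 in 5P livers, against 10.50, 10.37 and 10.40 in 15P livers. The groups did not overlap, by a narrow margin, and the difference was 0.23 (SE 0.097, adjusted p = 0.307). Timm8b had 9.64, 9.40 and 9.93 in 5P livers and 9.35, 9.40 and 9.20 in 15P livers, where 5P replicate 2 lay level with the highest 15P array. Its difference was 0.34 (SE 0.138, adjusted p = 0.290), or 0.21 without 5P replicate 3. Timm8a2, at a mean level of 3.70 that is below the median of all probe sets, had a difference of 0.06 (SE 0.14).

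In the TIM22 complex, which inserts the carriers, all 6 probe sets stood above 0 with a median of 0.09, and the members split by gene. Timm10b, a small TIM protein bound to this complex, had 8.50, 8.13 and 8.75 in 5P livers, against 7.88, 7.82 and 7.95 in 15P livers. The groups did not overlap, and the difference was 0.57 (SE 0.149, adjusted p = 0.147). Its second probe set had 6.13, 6.08 and 6.24 in 5P livers and 5.52, 5.65 and 6.09 in 15P livers, with 15P replicate 3 inside the 5P range and a difference of 0.40 (SE 0.146). The channel protein gene Timm22 had 0.09 on both of its probe sets, and Timm29, a metazoan subunit and the brightest of the class, had 0.03 (SE 0.091) and 0.09. The Timm29 value is near 0 and had the other sign without 15P replicate 1 (-0.03).

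In the TIM23 complex all 6 probe sets stood above 0, with a median of 0.13. Timm21, which links the complex to TOM and to the respiratory chain, had 7.68, 7.67 and 7.85 in 5P livers, against 7.50, 7.09 and 6.92 in 15P livers. The groups did not overlap, though the 15P arrays were spread more widely, and the difference was 0.56 (SE 0.147, adjusted p = 0.150). Timm17a, one of the paired channel-forming subunits, had 8.36, 8.55 and 8.55 in 5P livers, against 8.15, 8.19 and 8.23 in 15P livers. Its difference was 0.30 (SE 0.092, adjusted p = 0.192). Its paralogue Timm17b stood at 0.11 (SE 0.104) with overlapping groups, the presequence receptor Timm50 at 0.08 (SE 0.082), and the motor anchor Timm44 at 0.08 (SE 0.084) on its brighter probe set.

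The TOM class also holds the cytosolic cochaperone Tomm34. In this class 11 of 13 probe sets stood above 0, with a median of 0.11 and none past the test. The small subunit Tomm5 had 9.62, 9.71 and 9.72 in 5P livers, against 9.20, 9.42 and 9.56 in 15P livers, without overlap. Its difference was 0.29 (SE 0.108, adjusted p = 0.257). The channel Tomm40 had 7.73, 7.72 and 7.43 in 5P livers and 7.47, 7.43 and 7.37 in 15P livers, a difference of 0.20 (SE 0.105) in which 5P replicate 3 lay among the 15P arrays.

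The receptors of the outer membrane were named after their values were seen. Tomm20 had 0.11 on its brighter probe set and 0.19 on the other, Tomm22 had 0.07 (SE 0.08) with 5P arrays all above 15P arrays, and Tomm70, the receptor that carrier precursors use, had 0.03 and 0.04. The brightest member of the class, the small subunit Tomm7, had 0.18 (SE 0.104), or 0.28 without 5P replicate 1 and 0.12 without 5P replicate 3. The probe sets below 0 were those of the Tomm40 paralogue Tomm40l (-0.11, SE 0.171) and of the cytosolic cochaperone Tomm34 (-0.0002), and the other probe set of each stood above 0.

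**Figure D2:**
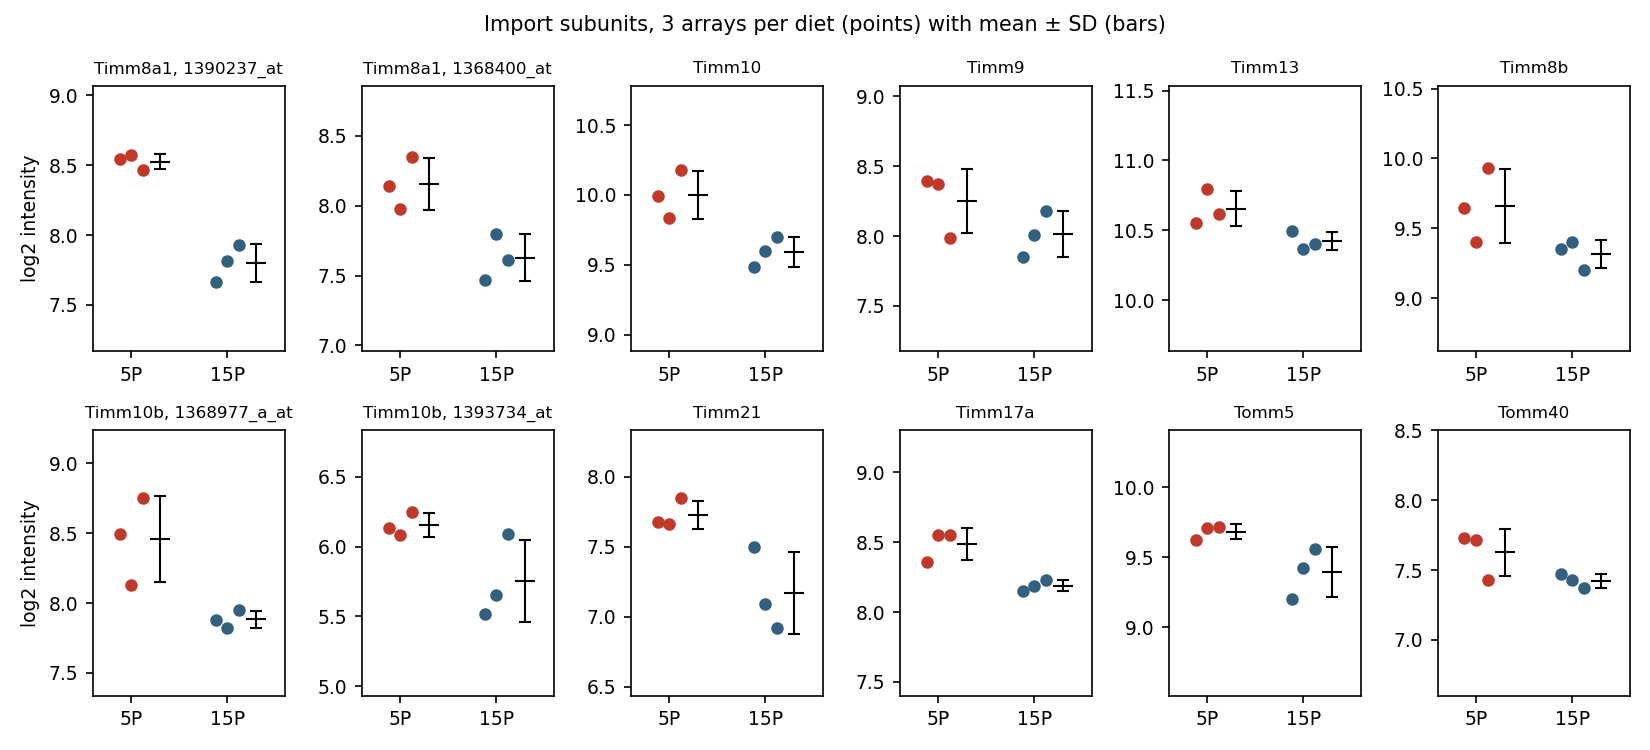
Log2 intensity (vertical axis, the same span in each panel) of 10 import genes on the 3 arrays of 5P (left) and 15P (right), with mean ± SD as bars and both probe sets of Timm8a1 and Timm10b. Both Timm8a1 panels and those of Timm10, Timm21 and Timm17a show groups that do not overlap, and those of Timm9 and Tomm40 show groups that do.

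Carriers of nucleotides, phosphate and coenzyme A had a median of -0.05, with 6 of 13 probe sets above 0. The ADP/ATP carrier Slc25a5, the brightest member of all at a mean level of 12.25, had 12.27, 12.16 and 12.14 in 5P livers, against 12.33, 12.31 and 12.29 in 15P livers. All 5P arrays lay below all 15P arrays, but the difference was -0.12 (SE 0.083) and did not pass (adjusted p = 0.518). Its paralogue Slc25a4, the muscle and heart form, had 0.19 (SE 0.191) and a spread within each diet larger than that difference. The phosphate carrier Slc25a3 had 11.62, 11.76 and 11.35 in 5P livers and 11.59, 11.46 and 11.59 in 15P livers, a difference of 0.03 (SE 0.118). Slc25a4 and Slc25a3 were named after their values were seen. Slc25a4 and Slc25a5 are close paralogues, and cross-hybridisation between them was not tested.

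Slc25a42, which carries coenzyme A into mitochondria, had 8.69, 8.28 and 8.19 in 5P livers, against 7.84, 8.08 and 8.15 in 15P livers. The groups met without overlapping, and the difference was 0.36 (SE 0.148, adjusted p = 0.296), or 0.21 without 5P replicate 1. The carriers that exchange ATP-Mg for phosphate did not share a direction. Slc25a41 had 0.30 (SE 0.125; 0.17 without 15P replicate 2) at a low mean level, the calcium-regulated Slc25a23 had -0.16, -0.36 and 0.06 on its 3 probe sets, and Slc25a24 had -0.05 (SE 0.139).

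Slc25a25, another calcium-regulated ATP-Mg/phosphate carrier, varied among control livers more than between diets. Its levels were 9.77, 9.56 and 9.66 in 5P livers, against 9.51, 9.92 and 10.63 in 15P livers. The SD was 0.10 in 5P livers and 0.57 in 15P livers, and the difference of -0.36 (SE 0.243) did not pass. The orphan carrier Slc25a30 was also uneven. It had 9.78, 10.13 and 10.45 in 5P livers, against 11.13, 10.75 and 9.95 in 15P livers, with a difference of -0.49 (SE 0.284, adjusted p = 0.446), and its second probe set had -0.64 (SE 0.404). Both of its probe sets were highest on 15P replicate 1 and lowest on 5P replicate 1. The Slc25a30 difference was -0.82 without 15P replicate 3 and -0.23 without 15P replicate 1. Slc25a25 and the second Slc25a30 probe set were named after their values were seen.

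Amino acid, S-adenosylmethionine and glutathione carriers had a median of 0.01, with 5 of 9 probe sets above 0, and no probe set reached an unadjusted p under 0.05. The branched-chain amino acid carrier Slc25a44 had 6.78, 6.60 and 6.74 in 5P livers, against 6.72, 6.97 and 7.08 in 15P livers, a difference of -0.21 (SE 0.115, adjusted p = 0.414), or -0.13 without 15P replicate 3. Its second probe set gave -0.20 (SE 0.096) with 5P arrays all below 15P arrays. The glutathione carrier Slc25a39, the brightest of the class, had 0.07 (SE 0.09), or 0.02 without 5P replicate 2 and 0.10 without 15P replicate 1. The aspartate-glutamate carrier Slc25a12 had 0.14 (SE 0.09), and the glutamate carriers Slc25a22 and Slc25a18 had -0.005 (SE 0.164) and 0.03 (SE 0.102). Slc25a12, Slc25a22 and Slc25a18 were named after their values were seen.

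The oxoglutarate-malate carrier Slc25a11 had 9.72, 9.86 and 9.80 in 5P livers, against 9.56, 9.69 and 9.66 in 15P livers. The groups lay side by side without overlap, and the difference of 0.16 (SE 0.088) did not pass (adjusted p = 0.426). The dicarboxylate carrier Slc25a10 had -0.07 (SE 0.096) on its brighter probe set and 0.09 (SE 0.227) on the other, and the oxodicarboxylate carrier Slc25a21 had -0.17 (SE 0.121). Of the carriers left out by name, the citrate carrier Slc25a1 had -0.58 (SE 0.105, adjusted p = 0.0739) with 5P arrays all below 15P arrays, and the carnitine-acylcarnitine carrier Slc25a20 had 0.45 (SE 0.091, adjusted p = 0.0911) with 5P arrays all above them. The 2 probe sets of Slc25a13 had -0.30 and -0.08, and those of Slc25a15 ran from -0.21 to 0.06.

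Iron, cofactor and pyrimidine carriers had a median of -0.04, with 3 of 8 probe sets above 0. Slc25a32, which carries folate or FAD, had 7.34, 7.18 and 7.27 in 5P livers, against 6.29, 7.28 and 6.47 in 15P livers. Its 15P replicate 2 lay among the 5P arrays and the other 15P arrays lay far below, so the difference of 0.58 (SE 0.228) was 0.88 without that array and 0.39 without 15P replicate 1. The other Slc25a32 probe set had -0.05 (SE 0.215). The pyrimidine nucleotide carrier Slc25a33 had 8.44, 8.30 and 8.62 in 5P livers, against 7.73, 8.30 and 8.30 in 15P livers. Only 15P replicate 1 stood clear of the 5P arrays, the difference was 0.35 (SE 0.164, adjusted p = 0.355), and without that array it was 0.16. The iron importers Slc25a37 and Slc25a28, named after their values were seen, had 0.10 (SE 0.137) and -0.04 (SE 0.098).

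Uncoupling-like and orphan carriers had a median of 0.003, with 8 of 14 probe sets above 0. Slc25a53 had 4.13, 4.19 and 4.12 in 5P livers, against 3.99, 3.79 and 3.67 in 15P livers. Its groups did not overlap and its unadjusted p was the lowest of any carrier, but its level was below the median of all probe sets and its difference of 0.33 (SE 0.102) did not pass (adjusted p = 0.192). Slc25a45 and Slc25a48 had 0.20 (SE 0.108) and 0.22 (SE 0.142). For Slc25a45 the difference was 0.09 without 15P replicate 3, and for Slc25a48 it was 0.06 without that array and 0.34 without 15P replicate 1. The 3 probe sets of Slc25a27, also known as UCP4, ran from -0.08 to 0.01 at levels below the median of all probe sets.

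**Figure D3:**
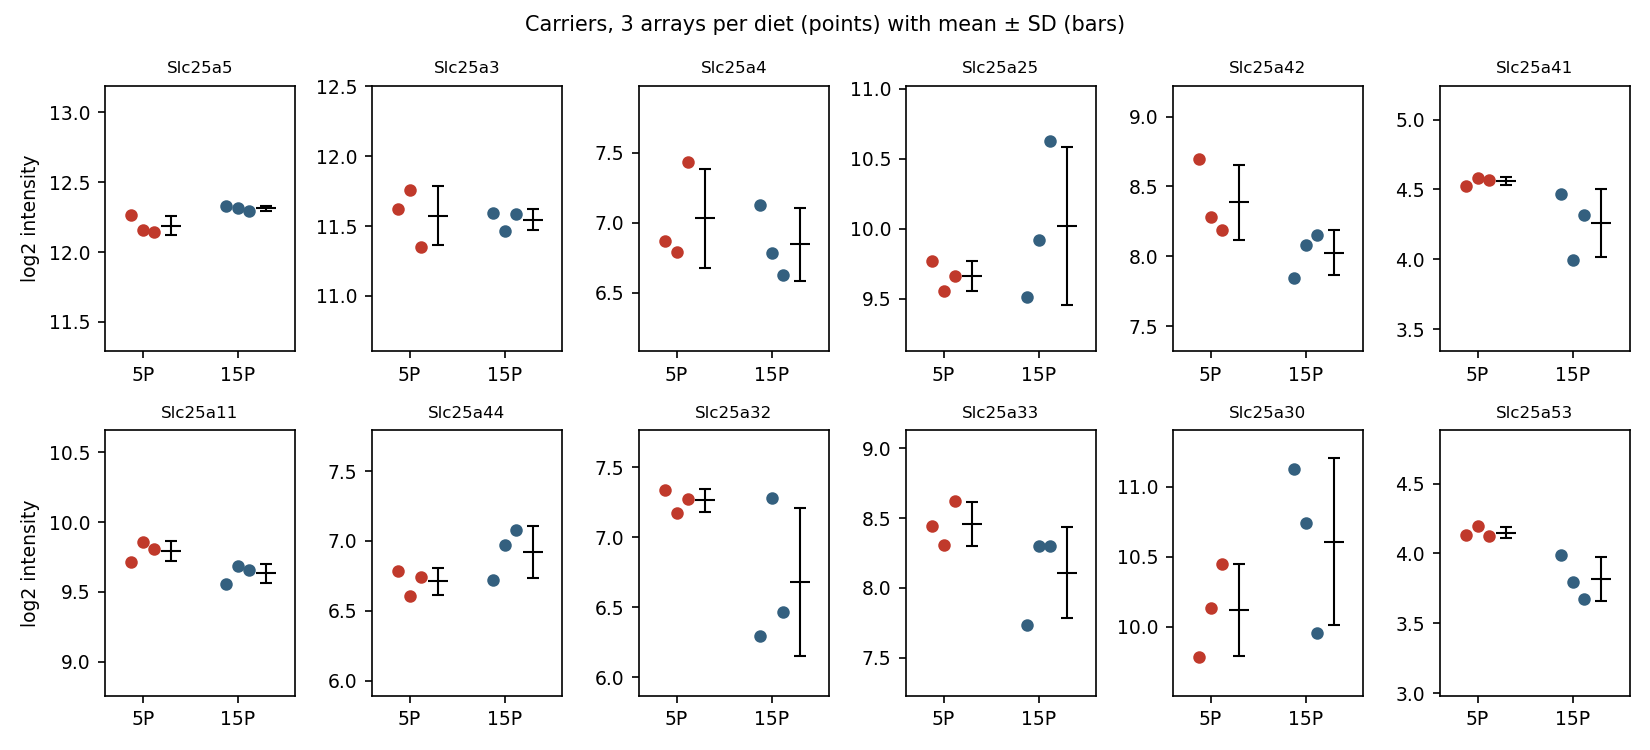
Log2 intensity (vertical axis, the same span in each panel) of 12 carrier genes on the 3 arrays of 5P (left) and 15P (right), with mean ± SD as bars. Slc25a25, Slc25a32 and Slc25a30 have the widest 15P spreads, with SDs of 0.57, 0.53 and 0.60, and the 5P points of Slc25a5 lie just below its 15P points.

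Each array's average over a family shows the same member values array by array, and is not separate support. Set against the mean of the 15P arrays, the import probe sets averaged 0.19, 0.16 and 0.25 on 5P replicates 1, 2 and 3, and -0.03, 0.01 and 0.02 on 15P replicates 1, 2 and 3. The carriers averaged 0.02, -0.01 and -0.02 on the 5P arrays, against 0.002, 0.03 and -0.03 on the 15P arrays. All 3 low-protein arrays were thus above all control arrays for the import average, and the carrier averages overlapped. All probe sets together averaged 0.002, 0.01 and 0.03 on the 5P arrays.

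**Figure D4:**
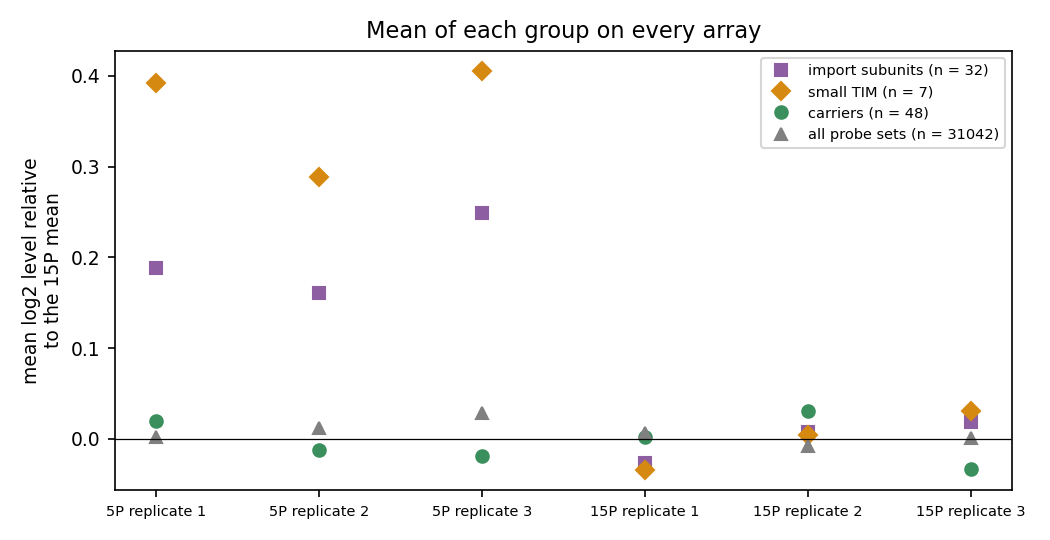
Mean log2 level relative to the mean of the 15P arrays (vertical axis) of import subunits, small TIMs, carriers and all probe sets on each of the 6 arrays (horizontal axis). The small TIMs average 0.39, 0.29 and 0.41 on the 5P arrays, and the carriers stay between -0.03 and 0.03 on all 6 arrays.

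Of the genes measured by several probe sets, 7 of 9 import genes and 4 of 10 carrier genes had the same sign on all of them. These counts restate in part the directions given above, and the share over all genes was not counted. No gene had probe sets of opposite sign that each reached an unadjusted p under 0.05. By the suffixes of their IDs, 1 probe set each for Timm10b, Tomm20, Tomm40l, Slc25a14 and Slc25a27 can match several transcripts, and signal from them is less certain.

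Other genes of mitochondrial import and transport were read from a list of 38, of which 36 were measured. Counted by the probe set of highest mean for each gene, none passed limma's test, 25 stood above 0 (69.4%, against 57.6% of all genes) and 11 below, and the median was 0.07, against 0.03 over all genes. An unadjusted p under 0.05 was reached upward by 5 (13.9%, against 8.41% of all genes) and downward by none (against 8.02%). Over all 47 probe sets of the list it was reached upward by 7 and downward by 1, a dim probe set of Hspa9. None of the 47 passed limma's test. The matrix chaperones that fold or pull imported proteins were among those furthest above 0. Hspe1, the cochaperonin, had a difference of 0.39 (SE 0.102, adjusted p = 0.146), the import motor Hspa9 had 0.37 (SE 0.139) on its brightest probe set and -0.88 (SE 0.367, unadjusted p = 0.0421) on the dim one, and the chaperonin Hspd1 had 0.23 (SE 0.103). The motor parts Pam16, Grpel1 and Grpel2 had 0.20 (SE 0.087), 0.20 (SE 0.092) and 0.28 (SE 0.119). The processing peptidase genes Pmpca and Pmpcb had 0.05 (SE 0.1) and 0.09 (SE 0.081), and Samm50, which inserts outer membrane barrels, had 0.23 (SE 0.14). Below 0 stood the peptidases Mipep and Xpnpep3, at -0.12 (SE 0.101) and -0.23 (SE 0.137), and Romo1 and Mtx2, at -0.15 (SE 0.099) and -0.05 (SE 0.105). Immp2l had -0.01 (SE 0.14). Mtch2 had -0.02 (SE 0.085) on its brighter probe set, and 0.30 (SE 0.109) on the other, with 5P arrays all above 15P arrays.

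Transporters outside the SLC25 family also lacked a common direction. Mpc2, a subunit of the mitochondrial pyruvate carrier, had 0.67 (SE 0.13, adjusted p = 0.0858), with 12.27 ± 0.15 in 5P livers and 11.60 ± 0.21 in 15P livers (SD, n = 3 each) and no overlap. Its partner Mpc1 had -0.16 (SE 0.104). The outer membrane channels Vdac1, Vdac2 and Vdac3 had 0.06, 0.19 and 0.11 (SE 0.112, 0.1 and 0.085). Sfxn1, Sfxn3 and Sfxn5 had -0.08, -0.16 and -0.06 (SE 0.086, 0.094 and 0.16), and Sfxn4 had 0.16 (SE 0.115). Mcu had -0.16 (SE 0.111) on its brightest probe set, and 0.09 and 0.16 on the others.

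Markers of hepatocytes and of other cells were read beside these values. The 4 red blood cell markers summed to linear intensities of 4030 to 4294 in 5P livers and 2845 to 3100 in 15P livers, with Hbb at 0.48 and Alas2 at 0.43, Slc4a1 at 0.14 and Epb42 at -0.06. None of the 4 passed, and 3 of 4 stood above 0, as did most import subunits. Hbb, at a mean log2 level of 11.75, was far brighter than Alas2, Slc4a1 and Epb42 (5.64, 4.57 and 4.37). The summed intensity therefore reflects mostly Hbb. Among carriers known from red cell formation, the iron importer Slc25a37 had 0.10 and the glycine carrier Slc25a38 had 0.02, named after their values were seen. The 4 measured Kupffer cell markers summed to 2006 to 3120 in 5P livers and 1717 to 2170 in 15P livers, and 3 stood above 0. All 4 stellate cell markers stood above 0 without passing, and their sums overlapped, at 363.7 to 564.5 in 5P livers and 311.8 to 466.4 in 15P livers. The 6 measured hepatocyte markers summed to 77180 to 78730 in 5P livers and 79100 to 79930 in 15P livers, also without overlap, with 3 above 0 and none passing. Among them Cps1 had -0.23 (SE 0.091) and Apoa1 -0.19 (SE 0.096), each with 5P arrays all below 15P arrays. The sums of the endothelial, cholangiocyte, lymphocyte, neutrophil and skeletal muscle lists also overlapped. Among cholangiocyte markers Epcam had -0.55 (SE 0.233), Krt19 -0.39 (SE 0.132) and Krt7 0.13 (SE 0.143), and none passed. The 2 adipocyte markers summed to 36.3 to 40.2 in 5P livers and 32.0 to 36.3 in 15P livers, touching at the edge and at low signal. The part of these cells in the import result was not tested.

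The promoter sequences shown above were set beside those of all genes on the array. RefSeq windows of 250 bases before to 50 after the start matched 51 of the 59 member genes, 21 import and 30 carrier genes, and 11700 genes of the array. The ETS site CCGGAAG, on either strand, was found in 7 of 21 import windows (33.3%), 5 of 30 carrier windows (16.7%) and 15.1% of all windows. The import genes with it were Timm10, Timm10b, Timm8a2, Timm8b, Tomm20, Tomm22 and Tomm70, whose differences ran from near 0 to among the largest. The core CGCATGCG of the palindrome bound by NRF1, a regulator of nuclear genes for mitochondria, was found in 1 import window (Tomm7), 1 carrier window (Slc25a44) and 3.09% of all windows. These letters replaced a longer form of the NRF1 site, with an unspecified base, after that form had been searched and its matches seen. The longer form had matched more import windows and a larger share of all windows, and its counts are not given here.

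The site TGATGNAA, a form of the composite element bound by the amino acid response factor ATF4, was found in the windows of Timm22 and Tomm40l, in no carrier window and in 2.20% of all windows. Neither of those genes differed beyond its SE on any probe set. The YY1 site AAGATGGCG was in 2 import windows, 1 carrier window and 3.14% of all, and the cyclic AMP element TGACGTCA was in no import window, in those of Slc25a25 and Slc25a33, and in 2.85% of all. The E-box CACGTG was added after the Timm8a1 sequence had been read. It was in 3 import windows (Timm8a1, Timm10 and Timm9), 2 carrier windows (Slc25a31 and Slc25a33) and 8.94% of all. The Timm8a1 window held none of the other motifs, and the Slc25a5 window held none of the 6. Such matches are letters only, and binding was not measured.

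Several member genes share a start region with a neighbour that runs the other way. Another gene's start lay on the opposite strand within 1000 bases upstream, or up to 50 bases inside the gene, for 5 of 21 import genes, 4 of 30 carrier genes and 14.3% of all genes on the array. Timm10b, at 0.57, lay 189 bases from Arfip2, which had -0.12 (SE 0.101). Timm8b, at 0.34, lay 96 bases from Sdhd, the gene of a respiratory complex subunit, which had 0.10 (SE 0.09). Timm21, at 0.56, lay 608 bases from Fbxo15, at 0.04 (SE 0.139), and Timm9 and Timm17b lay beside Kiaa0586 and Pqbp1, at -0.15 (SE 0.099) and -0.06 (SE 0.1). None of these 5 neighbours passed the test, and the differences of the import genes and of their neighbours were not compared by a test.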

How the data were processed

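Biotin-labelled liver RNA of 6 samples was hybridised to Affymetrix arrays, per the labels. The authors deposited an intensity for each probe set and array; RMA is named in the submitters' processing notes, with no software or version given. Since RMA equalises the arrays, a shift common to most genes is removed, and it carries no detection call. The intensities, 3.61 to 21668, were taken as linear and turned into log2. Without 57 control probe sets, 31042 were fitted with limma 3.58.1 in R 4.3.3 (lmFit, eBayes, two-sided, 4 residual degrees of freedom, 8.38 with the prior), with Benjamini-Hochberg adjustment over all of them and no filter. Symbols are those of the platform annotation, of which RefSeq's gene IDs (GRCr8) changed 0 of 80 members'. Arrays have no read depth, and 3 per diet limit the precision. No batch or scan date was at hand.

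The members, roles, lists and tests were chosen with earlier results of these data known. Genes are named by a rule: any member that passed, the 10 carrier and 10 import genes of smallest unadjusted p, the brightest gene of each role class, and genes with opposed probe sets; other members are named after their values were seen. Genes of the wider list and neighbours were picked likewise. Alternatives were 2 prior variances, 3 rescalings, 2 filters, array weights, a replicate block, each array left out, and 2 fits per gene. The procedure was tested on simulated data. Same-numbered arrays of the diets did not deviate together (correlations of deviations -0.0873, -0.0272 and -0.102). Differently numbered arrays had correlations of -0.0715 to 0.147. With 3 arrays per diet, these values cannot settle whether replicate numbers pair the samples. Plots were made with matplotlib 3.10.9 and Python 3.11.15.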

Additional observations from a re-analysis of the deposited data

How the results depend on the processing

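Over 17 alternatives no carrier probe set passed limma's test, and the import subunits kept a positive median and a majority above 0 in each. All probe sets gave 41 calls, against 103 with a robust prior variance, 78 with median centring, 102 with array weights, 6 with the replicate number as a block, 26 with 1 probe set per gene and 16 to 109 with 1 array left out. Upward calls made up 26.8%, against 40.7% after centring at the 75th percentile, 16.7% after median centring, 50% with the replicate block and 11.8% to 40.9% with 1 array left out (11.8% without 15P replicate 2, 12.5% without 5P replicate 2 and 40.9% without 5P replicate 1). The single import call, Timm8a1, became 0 calls with quantile normalization (adjusted p = 0.0525), with the replicate block (0.123) and with the mean of a gene's probe sets (0.0554), and 0 to 1 with 1 array left out. Its adjusted p ranged from 0.0361 to 0.132 over all alternatives. The block changed no other call among the members. The import median of 0.14 was 0.11 after median centring, 0.19 after centring at the 75th percentile, 0.16 and 0.18 with filters at the 25th and 50th percentile, 0.16 in both fits per gene and 0.11 to 0.16 with 1 array left out. The carrier median of -0.0005 was -0.0278 after median centring, 0.0484 after centring at the 75th percentile and -0.0299 to 0.0086 with 1 array left out, so it has no settled sign. The import median minus the carrier median was 0.14, 0.19 with the filter at the 50th percentile and 0.10 to 0.18 with 1 array left out. Import probe sets above 0 numbered 28 to 31 of 32 with 1 array left out. The Timm29 value of 0.03 ran from -0.0334 (without 15P replicate 1) to 0.0732 with 1 array left out. The fewer samples or features of those fits aside, the cause was not tested. No rescaling shifted the median of all probe sets by more than 0.05. Signal near background limits Tomm40l, Timm8a2, Slc25a27 and Slc25a53.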
